A study of Mus musculus with 8 samples.

Results

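The genes described here are the mouse colony-stimulating factors and their receptors, picked from the table by gene symbol. They are the ligand genes Csf1, Il34, Csf2 and Csf3 and the receptor genes Csf1r, Csf2ra, Csf2rb, Csf2rb2 and Csf3r, 9 of the 16091 genes in the deposited table. All 9 were in the table and passed the filter on low values. The samples were whole corneas of 2 genotypes, Opn5-/- (Opn5-null, 4 libraries) and wild-type (4 libraries), all collected 12 hours after the corneal epithelium had been scraped away. Opn5 encodes opsin 5, a light-sensitive receptor, and the study's title concerns violet light and the healing of corneal wounds. Every sample title holds the word Light, which no label explains, and the labels give no strain, sex or age. The Opn5 transcript was not analysed here, so only the labels give the genotypes. The labels do not state that the 4 samples of a genotype are from different animals. The p-values therefore rest on the spread among these 8 samples, part of which could be technical.

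Colony-stimulating factors are secreted proteins that drive the production, survival and activation of myeloid cells. M-CSF (Csf1) and IL-34 share 1 receptor, the tyrosine kinase encoded by Csf1r, which marks monocytes and macrophages. GM-CSF (Csf2) binds the alpha chain encoded by Csf2ra, which signals together with the common beta chain encoded by Csf2rb. The common beta chain also serves the receptors of IL-3 and IL-5, and the mouse has a separate, closely related beta chain, Csf2rb2, that serves IL-3. G-CSF (Csf3) binds the receptor encoded by Csf3r, the hallmark growth factor receptor of neutrophils. In an injured cornea neutrophils and monocytes enter from the vessels of the limbus, while resident macrophages sit in the stroma.

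The question put to these genes was how their transcripts differ between wounded corneas with and without Opn5. Of the 9 genes, 7 were higher in Opn5-null corneas, namely Csf1, Csf3 and all 5 receptor genes, by ratios of mean normalized count from 3.90 to 17.4. By limma 0 members were called lower, and Csf2 and Il34 did not pass the threshold. A call is a Benjamini-Hochberg adjusted p below 0.05 by limma over 16085 genes. The count of lower members was also 0 at an unadjusted p below 0.05, by edgeR and by DESeq2. By limma's rule 18.8% of all genes tested were higher and 13.5% were lower. Each of the 7 combined its call with a log2 fold change above 1, as did 11% of all genes. The median log2 fold change was 2.05 over the 9 members and -0.02 over all genes tested. In the same 7 genes all 4 Opn5-null libraries lay above all 4 wild-type libraries, a separation found in 20.3% of all genes in that direction and in 38.4% in either direction. The exact permutation test over the 8 libraries gave p = 0.0286 for each of the 7, which is the smallest 2-sided value that 70 splits of 4 against 4 can give. In the authors' deposited table the same 7 genes had an adjusted p-value below 0.05, with log2 fold changes from 1.96 for Csf1r to 4.12 for Csf3.

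**Figure D1:**
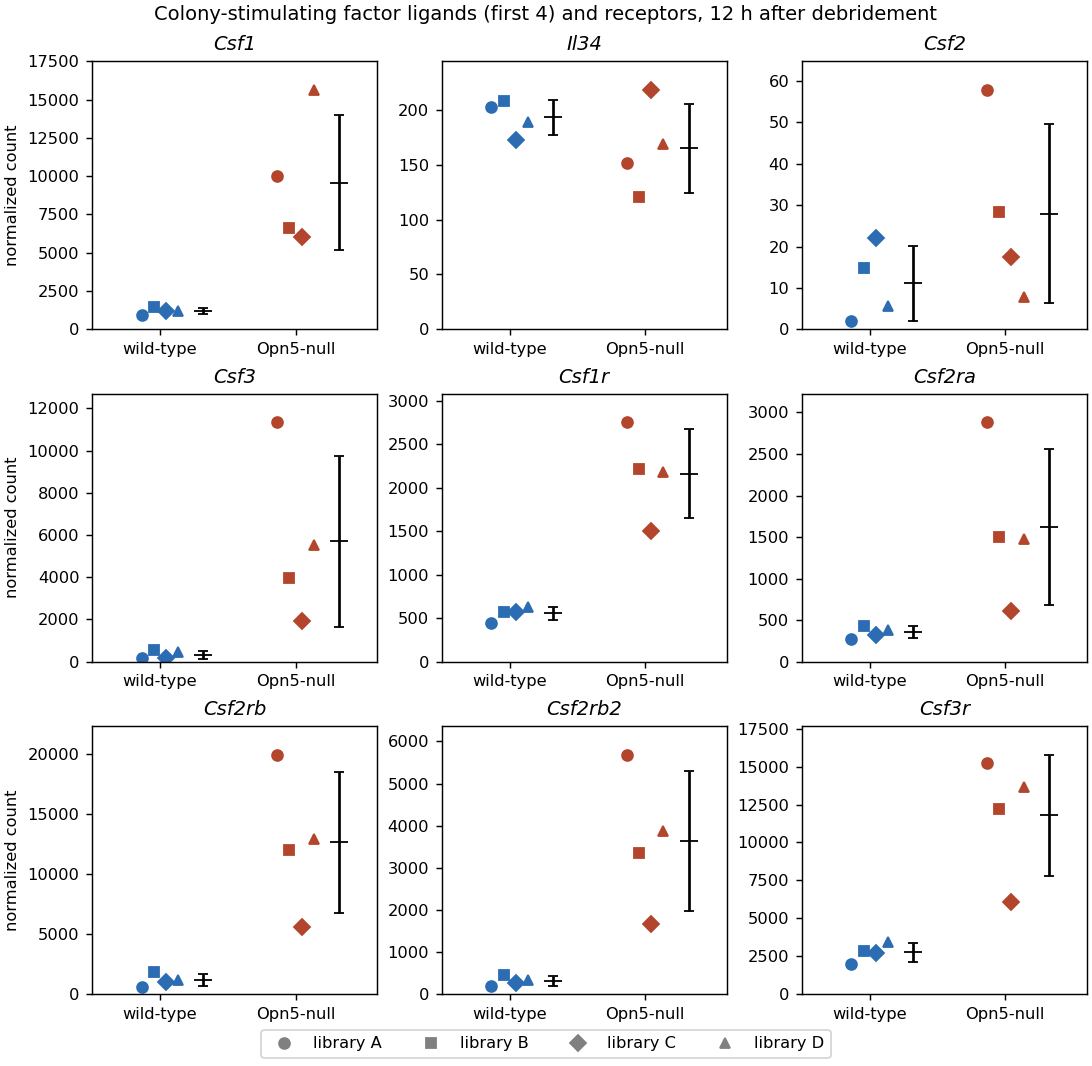
Normalized count of each gene (vertical axes, starting at 0) in the 4 wild-type (blue) and 4 Opn5-null (red) corneas. Marker shapes are the library letters, and the bar beside each group is the mean with its SD. The groups overlap for Il34 and Csf2, and Opn5-null C is the lowest red point for 7 of the 9 genes.

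Among the ligands, Csf1 on chromosome 3 (ENSMUSG00000014599), the growth factor that macrophages depend on, measured 10018, 6596, 6020.4 and 15646 normalized counts in the Opn5-null libraries A to D. Its level was 958, 1476, 1159 and 1161 in the wild-type libraries A to D. The groups did not overlap, and Opn5-null C, the lowest of its group, stood 4.08 times above wild-type B, the highest of the other. The means were 9570 ± 4418 and 1188 ± 214 normalized counts (SD, n = 4), a ratio of 8.05. The ratio was 6.35 without Opn5-null D, the library with the highest level, and at most 9.05 when any other library was left out. The log2 fold change was 2.92 ± 0.29 (SE; 95% interval 2.25 to 3.58), with a limma adjusted p of 0.000313.

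The Csf1 promoter window, from 250 bases before the start of the gene to 50 bases after it, is shown because Csf1 was called higher together with its receptor gene. It is chr3:107760420-107760719 on the minus strand, from the RefSeq table of build GRCm38.p6, and is printed 5′ to 3′ along the gene. Capitals mark the only match to the NF-kB motif, read on either strand, with its first base 154 bases before the start.
Csf1: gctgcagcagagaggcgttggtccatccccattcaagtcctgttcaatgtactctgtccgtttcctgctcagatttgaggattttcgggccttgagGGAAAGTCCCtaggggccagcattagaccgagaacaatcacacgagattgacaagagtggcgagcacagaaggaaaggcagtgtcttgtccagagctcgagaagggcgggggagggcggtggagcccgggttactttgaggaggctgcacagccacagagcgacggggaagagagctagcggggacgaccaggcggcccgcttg
Of 27025 promoter windows of this length, 8.18% held an NF-kB match. The motif was picked with earlier results known, and a match is a description and not evidence of binding.

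Il34 on chromosome 8 (ENSMUSG00000031750), the other ligand of the Csf1r protein, is known for sustaining Langerhans cells and microglia. It measured 151, 121, 218 and 169 normalized counts in Opn5-null A to D and 202, 209, 173 and 189 in wild-type A to D. Opn5-null C held the highest level of all 8 libraries and Opn5-null B the lowest, so the groups overlapped. The log2 fold change was -0.26 ± 0.18 (SE; 95% interval -0.66 to 0.15), with a limma adjusted p of 0.299 and an exact permutation p of 0.257. By limma-voom with quality weights it was called lower (log2 fold change -0.53, adjusted p = 0.0136). An increase of the size seen for Csf1 lies outside that interval. The ligands of the shared receptor were thus not in the same proportion in both genotypes. The ratio of Csf1 to Il34 counts within a library was 66.2, 54.6, 27.6 and 92.6 in Opn5-null A to D, against 4.73, 7.07, 6.70 and 6.15 in wild-type A to D.

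Csf2 on chromosome 11 (ENSMUSG00000018916), which encodes GM-CSF, was the scarcest member. It measured 57.9, 28.4, 17.6 and 7.84 normalized counts in Opn5-null A to D and 2.05, 14.7, 21.99 and 5.61 in wild-type A to D. Opn5-null A and B exceeded every wild-type library, while Opn5-null C and D fell among them. These values rest on 98 reads in the Opn5-null group and 47 in the wild-type group, with only 2 in wild-type A and 9 in Opn5-null D. The means were 27.9 ± 21.7 and 11.1 ± 9.01 (SD, n = 4), a ratio of 2.52, and 1.62 without Opn5-null A. The log2 fold change was 1.32 ± 0.76 (SE; 95% interval -0.41 to 3.06), with a limma adjusted p of 0.211 and an exact permutation p of 0.171. The interval includes both no change and the change of Csf1. By limma-voom with quality weights, 1 of the alternatives tried, Csf2 did pass the threshold (log2 fold change 1.88, adjusted p = 0.027).

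Csf3, also on chromosome 11 (ENSMUSG00000038067), encodes G-CSF, which mobilises neutrophils and prolongs their life. It had the highest fold change of the 9 genes. The Opn5-null libraries A to D held 11339, 3969.6, 1943 and 5541 normalized counts, and the wild-type libraries A to D held 151, 532, 162 and 462. No wild-type library reached any Opn5-null library, although Opn5-null A held 5.84 times as much as Opn5-null C and wild-type B held 3.52 times as much as wild-type A. The means were 5698 ± 4039 and 327 ± 199 (SD, n = 4), a ratio of 17.4, which ranged from 11.7 without Opn5-null A to 22.05 without wild-type B. The log2 fold change was 4.07 ± 0.60 (SE; 95% interval 2.69 to 5.45), with a limma adjusted p of 0.00173.

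The 3′ ends of the Csf2 and Csf3 transcripts are shown because messages of this kind are textbook targets of AU-rich element decay, in which proteins such as tristetraprolin (Zfp36) bind the repeats and shorten the life of the RNA. The windows are 30 bases each, printed 5′ to 3′ as DNA from the GENCODE M21 transcripts (GRCm38). Capitals mark overlapping copies of TTATTTATT in Csf2 and copies of ATTTA in Csf3.
Csf2: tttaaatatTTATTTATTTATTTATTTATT
Csf3: gatagtttATTTAtctctATTTAatATTTA
Csf2 held 4 copies of TTATTTATT in a 3′ untranslated region of 317 bases, and 9 copies of ATTTA. Csf3 held 6 copies of ATTTA in 669 bases and 0 of the longer motif. None of the other 7 members held the longer motif, and Csf2ra, Csf2rb, Csf2rb2 and Csf3r held 0 copies of ATTTA as well. Of 13831 genes tested with such a region of at least 30 bases, 7.24% held at least 1 copy of TTATTTATT and 0.542% held 3 or more. Decay was not measured here.

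**Figure D2:**
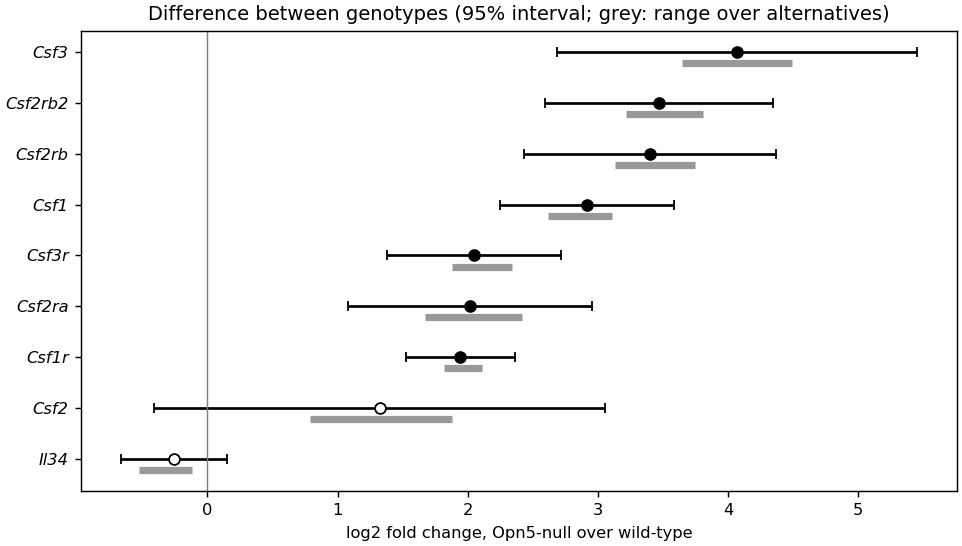
Log2 fold change of each gene, Opn5-null over wild-type, on the log2(value + 1) scale (points, filled where limma's adjusted p was below 0.05), with its 95% interval. The grey bars span the values under all alternative settings, and for the 7 called genes they lie between 1.67 and 4.49, clear of 0.

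Of the receptors, Csf1r on chromosome 18 (ENSMUSG00000024621), the receptor of M-CSF and IL-34, measured 2756, 2221, 1501 and 2184 normalized counts in Opn5-null A to D. The wild-type libraries A to D held 449, 569, 571 and 631. The groups did not overlap, and the lowest Opn5-null library held 2.38 times the highest wild-type one. The ratio of means was 3.90, from 3.55 to 4.30 as each library was left out. The log2 fold change was 1.94 ± 0.18 (SE; 95% interval 1.52 to 2.36), with the lowest limma adjusted p of the members, 0.000238.

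Csf2ra on chromosome 19 (ENSMUSG00000059326) encodes the chain that gives the GM-CSF receptor its specificity. Its normalized counts were 2882, 1502, 610.1 and 1477 in Opn5-null A to D and 272, 434, 318 and 385 in wild-type A to D. The groups came closest here among the 7 called genes, since Opn5-null C was only 1.41 times wild-type B. The ratio of means was 4.59, from 3.40 without Opn5-null A to 5.55 without Opn5-null C. The log2 fold change was 2.02 ± 0.41 (SE; 95% interval 1.08 to 2.95), with a limma adjusted p of 0.00736.

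The genes of both beta chains lie on chromosome 15. Csf2rb (ENSMUSG00000071713) held 19960.1, 12033, 5625 and 12962 normalized counts in Opn5-null A to D and 623, 1859, 1020.0 and 1192 in wild-type A to D. Csf2rb2 (ENSMUSG00000071714) held 5685, 3347, 1659 and 3862 in Opn5-null A to D and 198, 459, 263 and 331 in wild-type A to D. The libraries took the same order for both genes, with A highest and C lowest among Opn5-null corneas and B highest and A lowest among wild-type corneas. The ratios of means were 10.8 and 11.6. The log2 fold change was 3.40 ± 0.42 for Csf2rb (SE; 95% interval 2.43 to 4.37; limma adjusted p = 0.00081). It was 3.47 ± 0.38 for Csf2rb2 (SE; 95% interval 2.60 to 4.35; limma adjusted p = 0.000468). These near-copies can share reads. Of all 50-base windows of the longest coding Csf2rb2 transcript, 19.0% also occur in Csf2rb transcripts, and 7.20% of 100-base windows do, so the split between them is uncertain. With both rows added together the log2 fold change was 3.42, with a limma adjusted p of 0.000706.

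Csf3r on chromosome 4 (ENSMUSG00000028859), the G-CSF receptor, was the most abundant receptor per kilobase of exon in both genotypes. It measured 15215, 12205, 6087 and 13649 normalized counts in Opn5-null A to D and 1957, 2871, 2739 and 3426 in wild-type A to D. All Opn5-null libraries stood above the wild-type ones, with Opn5-null C 1.78 times above wild-type D. The ratio of means was 4.29, from 3.87 to 4.98 as each library was left out. The log2 fold change was 2.05 ± 0.29 (SE; 95% interval 1.38 to 2.72), with a limma adjusted p of 0.00144.

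The promoter windows of 3 receptor genes are printed because these genes rose together and PU.1, encoded by Spi1, is the textbook activator of myeloid receptor promoters. The RefSeq table held windows for 5 of the 9 members, namely Csf1, Csf2, Csf2ra, Csf2rb2 and Csf3r. Capitals mark GAGGAAG, a core letter string of PU.1 sites, or its reverse complement. Csf2ra is chr19:61228369-61228668 on the minus strand, Csf2rb2 is chr15:78305672-78305971 on the minus strand and Csf3r is chr4:126024409-126024708 on the plus strand, all in build GRCm38.p6 and printed 5′ to 3′ along the gene.
Csf2ra: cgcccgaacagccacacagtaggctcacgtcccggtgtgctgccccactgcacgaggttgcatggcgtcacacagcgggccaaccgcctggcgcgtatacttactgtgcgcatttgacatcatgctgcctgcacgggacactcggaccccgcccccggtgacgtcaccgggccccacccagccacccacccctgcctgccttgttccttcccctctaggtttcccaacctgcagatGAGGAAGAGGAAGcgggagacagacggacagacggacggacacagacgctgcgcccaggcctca
Csf2rb2: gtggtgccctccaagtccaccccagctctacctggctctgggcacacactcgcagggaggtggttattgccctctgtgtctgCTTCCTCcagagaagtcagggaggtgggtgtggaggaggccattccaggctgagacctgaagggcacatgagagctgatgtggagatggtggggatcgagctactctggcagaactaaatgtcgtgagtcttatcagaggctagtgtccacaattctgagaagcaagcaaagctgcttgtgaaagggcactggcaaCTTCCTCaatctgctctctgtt
Csf3r: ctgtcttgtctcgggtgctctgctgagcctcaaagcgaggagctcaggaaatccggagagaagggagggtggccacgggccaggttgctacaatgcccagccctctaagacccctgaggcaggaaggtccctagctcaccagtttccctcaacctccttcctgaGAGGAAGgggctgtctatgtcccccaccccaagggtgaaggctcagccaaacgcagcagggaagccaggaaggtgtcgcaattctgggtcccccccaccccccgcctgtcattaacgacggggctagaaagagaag
Csf2ra held 2 matches that overlap by 1 base, starting 14 and 8 bases before the start of the gene. In Csf2rb2 both matches lie on the opposite strand, at 168 bases before and 29 bases after the start, and the match in Csf3r begins 86 bases before it. The Csf1 and Csf2 windows did not hold these letters. GAGGAAG occurs on either strand in 13.5% of the 27025 windows. Csf3r also held an NF-kB match at 129 bases before its start, and Csf2 held the C/EBP letters TTGCNNAA, found in 10.8% of windows, at 145 bases before its start. The 5 windows held no match to the AP-1 letters TGANTCA (7.93% of all windows), the TATA letters TATAAA (14.2%) or the interferon response motif ISRE (3.49%). These motifs were chosen with the sequences in view, and no match says only that the letters are not in this window.

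Ratios within a library show how each ligand stood to its receptor where both were read from the same RNA. The 8 pairs were chosen after the values had been seen, and each ratio is of normalized counts without regard to gene length, so only its difference between genotypes is read. Csf1 over Csf1r was 3.64, 2.97, 4.01 and 7.16 in Opn5-null A to D and 2.13, 2.59, 2.03 and 1.84 in wild-type A to D. Every Opn5-null library lay above every wild-type library, and the difference of mean log2 ratios was 0.98 (0.72 to 1.14 as each library was left out). Csf3 over Csf3r had a median of 0.366 in Opn5-null and 0.106 in wild-type libraries, and its mean log2 ratios differed by 2.02. For every pair the difference given is that of mean log2 ratios, taken on value + 1, and not that of the medians. Il34 over Csf1r went the other way, with medians of 0.0661 and 0.335 and a difference of -2.20. Csf1 over Il34 differed by 3.17. Within the GM-CSF receptor, the beta chain gained on the alpha chain, because Csf2rb over Csf2ra ran from 6.93 to 9.22 in Opn5-null and from 2.29 to 4.29 in wild-type libraries, a difference of 1.38. Each of these 5 pairs had the smallest exact permutation p, 0.0286, and an adjusted p of 0.0457 over the 8 pairs. The pairs share genes, and Csf1 over Il34 follows from Csf1 over Csf1r and Il34 over Csf1r, so these are not 5 separate results. Because the pairs were picked on the values, these p-values are a description and not a test. Csf2 over Csf2ra (difference -0.69, adjusted p = 0.4, exact permutation test) and Csf1 over Csf3 (-1.15, adjusted p = 0.229, exact permutation test) overlapped between the genotypes. Csf2rb2 over Csf2rb ran from 0.278 to 0.298 in Opn5-null and from 0.247 to 0.319 in wild-type libraries, a difference of 0.07 (exact permutation test, adjusted p = 0.4).

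**Figure D3:**
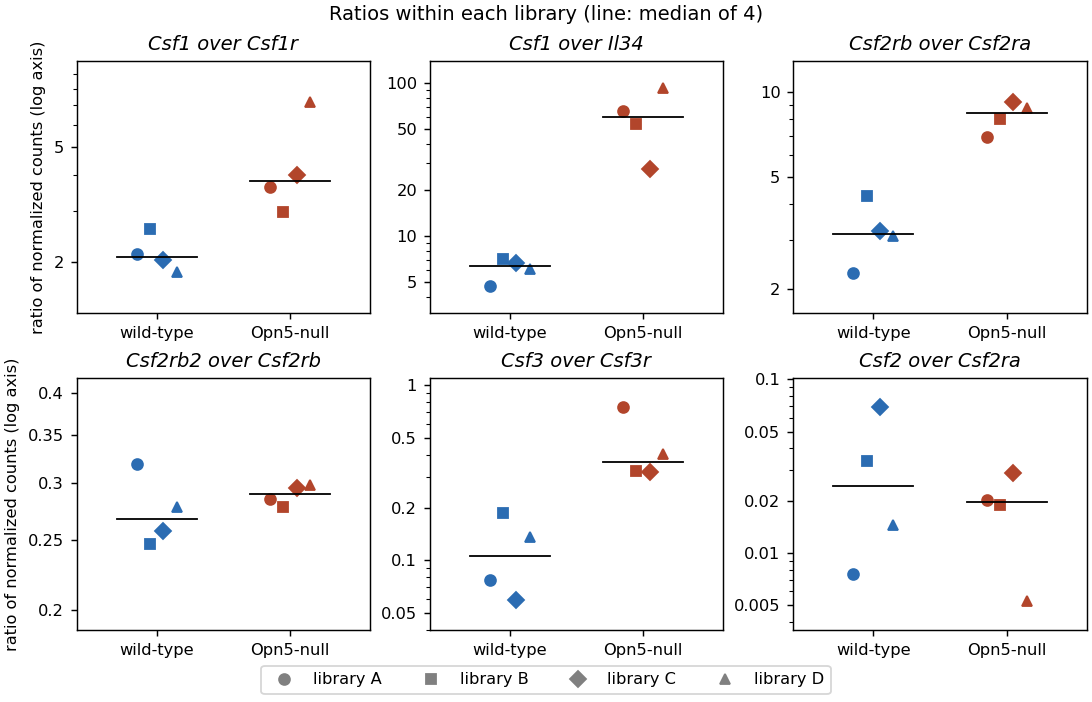
Ratio of normalized counts of 2 genes within each library (vertical log axes), for 6 of the 8 pairs, with blue for wild-type and red for Opn5-null and a line at each median of 4. Csf1 over Csf1r, Csf1 over Il34, Csf2rb over Csf2ra and Csf3 over Csf3r separate the genotypes, while Csf2rb2 over Csf2rb and Csf2 over Csf2ra overlap.

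Levels can be ordered between genes only per length, here as normalized counts per kilobase of merged exons in GENCODE M21. In Opn5-null corneas Csf3 stood first at 4033 ± 2858 per kilobase, followed by Csf3r at 3267 ± 1107, Csf1 at 1812 ± 837 and Csf2rb at 1738 ± 806 (SD, n = 4). Csf2rb2, Csf2ra and Csf1r came next at 768, 564 and 375 per kilobase, and Il34 and Csf2 last at 84.2 and 34.9. Neighbours in this order had overlapping ranges except Csf1r and Il34. In wild-type corneas Csf3r was first at 761 ± 168 per kilobase and above all others without overlap (SD, n = 4). Csf3, Csf1, Csf2rb, Csf2ra, Il34, Csf1r and Csf2rb2 followed at 231, 225, 161, 123, 98.6, 96.1 and 66.0 per kilobase, each overlapping the next. Csf2, at 13.9 per kilobase, lay below Csf2rb2 without overlap. In wild-type corneas Il34 and Csf1r were at like levels per kilobase, and in Opn5-null corneas every library's Csf1r level exceeded every library's Il34 level.

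Several libraries stood at the same end of their group for most of the genes. Opn5-null A was the highest of its group for 7 of the 9 genes and Opn5-null C the lowest for 7, while wild-type A was the lowest of its group for 8 and wild-type B the highest for 6. Csf1 had its highest level in Opn5-null D, and Csf2 its lowest Opn5-null level there. Il34 was highest of the Opn5-null libraries in C and lowest in B, and it was lowest of the wild-type libraries in C. Csf1r and Csf3r were highest of the wild-type libraries in D, and Csf2 in C. Neutrophil, monocyte and macrophage markers were also highest in Opn5-null A and lowest in Opn5-null C. As the mean log2 difference from the wild-type mean, 18 neutrophil markers stood at 2.17 in Opn5-null A and 0.80 in Opn5-null C, and 20 monocyte and macrophage markers at 1.52 and 0.88. The summed level of the neutrophil list ran from 70766 to 214189 normalized counts in Opn5-null and from 39537 to 68233 in wild-type libraries. That of the monocyte and macrophage list ran from 41671 to 111321 and from 9787 to 15358. These sums mostly reflect a few abundant genes, namely S100a9, Lcn2 and S100a8 in the neutrophil list and Cd14 and Lyz2 in the other. Of these, Lcn2 was not called (limma adjusted p = 0.228). No measured marker of either list was at 0 in any library. In bulk tissue, more cells of a type and more RNA per cell cannot be told apart, and the part of cell numbers in the differences of the receptor genes was not tested. Keratinocyte markers stood apart in 1 library, with a mean of -2.20 in Opn5-null D against -0.28 in Opn5-null B, the highest of the group.

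**Figure D4:**
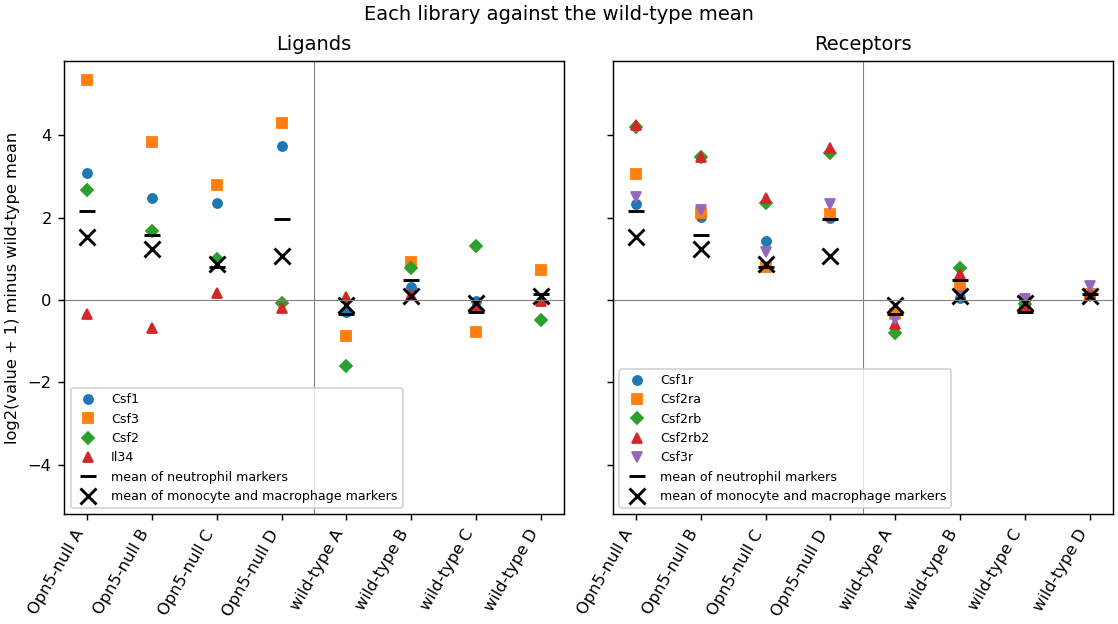
Log2(value + 1) of each gene minus its wild-type mean, by library, for the ligands (left) and receptors (right). Black dashes are the mean of the neutrophil markers and crosses the mean of the monocyte and macrophage markers, which are lowest among Opn5-null libraries in C, as are all 5 receptor genes. Csf2rb and Csf2rb2 lie above both marker means in all 4 Opn5-null libraries. Each marker mean pools genes that were higher with genes that were lower or did not pass.

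The receptors differed in how far they stood from these marker means. These differences are given as a description, since the markers and the receptors were chosen with earlier results known. Each mean pools markers that were higher with others that were lower or did not pass, so single markers lie well above it. Log2 fold changes included -1.10 for Padi4 and 3.05 for Mmp9 in the neutrophil list. The other list held -1.85 for Cd163 and 4.56 for Ly6c2, against 3.40 for Csf2rb. Csf2rb minus the neutrophil mean was 1.57 to 2.03 on the log2 scale in Opn5-null libraries and -0.46 to 0.29 in wild-type libraries. The same difference for Csf2rb2 was 1.67 to 2.08 and -0.24 to 0.14. For Csf3r it was 0.33 to 0.60 and -0.39 to 0.32, a smaller shift than that of either beta chain. Csf1r minus the monocyte and macrophage mean was 0.57 to 0.91 and -0.17 to 0.13. Csf2ra minus that mean was -0.06 to 1.53 and -0.23 to 0.22, with Opn5-null C inside the wild-type range.

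The likeness of 2 genes was measured as the root mean square difference between their log2 profiles over the 8 libraries, each centred on its own mean. The measure is not scaled to a gene's own variation, so a gene that varies little lies near other flat genes. The profiles span both genotypes, so for the called members nearness largely reflects a like fold change. For example, the log2 fold change was 1.90 for Adgre1 and 1.94 for Csf1r, and 2.01 for Btk and 2.05 for Csf3r. Likeness within a genotype was not measured apart from this. Among the members, Csf2rb and Csf2rb2 were closest at 0.109, followed by Csf1r and Csf3r at 0.190 and Csf2ra and Csf3r at 0.281. Among 13912 other genes, the profile nearest to Csf1r was that of Adgre1, which encodes a surface protein that marks mouse macrophages, at 0.0775, ahead of Il16 and Clec4a1. Nearest to Csf3r were Btk at 0.0740, the gene of a tyrosine kinase of B cells and myeloid cells, then Pirb, an inhibitory receptor gene, and Dok3, an adaptor gene. Csf2rb had Klra2 and Lcp2 among its nearest genes, and Csf2rb2 had Lcp2 and Hcar2. Lcp2 encodes the adaptor SLP-76. Csf2ra was nearest to Adam8, Slc7a2 and Thbs1. Of the ligands, Csf1 was nearest to Ifitm6 (0.144), Rgs2, a regulator of G protein signalling, and Clec4n, the gene of the lectin Dectin-2, and Csf3 to Clec4e (0.244), the gene of the lectin Mincle, then Mirt2 and the cystine transporter gene Slc7a11. Csf2 had no close neighbour, since its nearest gene, Tcrg-C2, was at 0.637. Il34 was nearest to Zbed3 (0.107), Znhit3 and Tmem176a, none of them called, but its own root mean square variation about its mean was only 0.261, against 1.52 for Csf1.

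Genes of the pathways around these receptors were taken from lists chosen with earlier results known. Of all genes tested, 18.8% were higher and 13.5% lower. Of 26 JAK-STAT and other proximal signalling genes, 21 were higher and 5 did not pass, with a median log2 fold change of 1.13 against -0.02 for all genes. Pik3ap1, an adaptor for phosphoinositide 3-kinase, was 17.6-fold higher, Tyrobp, the gene of the adaptor DAP12, 6.75-fold and the phosphatase gene Ptpn6 3.96-fold. Among 16 feedback and survival genes, 12 were higher and 1 lower, with a median of 1.46. The lower gene was Pim3, a call that ended without Opn5-null B or D or without wild-type A, B or D. The anti-apoptotic genes Bcl2a1a, Bcl2a1b and Bcl2a1d had log2 fold changes of 3.78, 3.89 and 3.90, but these are near-identical copies whose reads can be shared. Bcl3, which encodes a nuclear partner of NF-kB, was higher by 1.94. Myeloid transcription factor genes were higher in 13 of 17 cases and 4 did not pass, with a median of 1.49. Without Opn5-null D, 1 of them was called lower. Spi1, the gene of PU.1, was 6.17-fold higher, Irf5 6.26-fold, Irf8 4.33-fold and Tfec 3.58-fold. The higher counts of these lists kept within 1.5 times under every alternative tried.

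Cytokines and transcription factors known to induce the CSF genes, taken as 1 list, were higher in 12 of 17 cases, while 5 did not pass, with a median of 1.48. Il1b measured 75330 ± 47016 and 3966 ± 2648 normalized counts (SD, n = 4), a ratio of 19.0. Il6 was 47.9-fold higher, Tnf 9.25-fold, and Nfkbiz, which encodes a nuclear NF-kB cofactor, 8.82-fold. Of 15 genes for proteins that bind AU-rich elements or stem-loops and promote or oppose decay, 4 were higher and 2 lower, with a median of 0.16. These shares, 26.7% and 13.3%, were near those of all genes tested, 18.8% and 13.5%. Zc3h12a, the gene of the RNA-cutting enzyme Regnase-1, was 6.18-fold higher and Arid5a, which encodes a protein that opposes Regnase-1, 3.69-fold. Zc3h12c was higher by 0.42 and Zfp36l2 had a log2 fold change of -0.23. Zfp36, named because it binds the AU-rich letters printed for Csf2, had a log2 fold change of 0.64 that did not pass (limma adjusted p = 0.19). The count of 2 lower was 0 without wild-type A, C or D and 1 without Opn5-null B or wild-type B. Among 5 genes for CSF1R partners and shedding, Adam17, the sheddase gene, and its regulator Rhbdf2 were 1.53-fold and 3.23-fold higher. Ptprz1, which encodes a receptor for IL-34, had a log2 fold change of -1.01, a call that ended without Opn5-null B or without wild-type A, B or D. Of the beta common family only Il3ra, the IL-3 receptor alpha chain gene, was analysed, with 135 ± 34.1 against 103 ± 16.3 normalized counts (SD, n = 4) and a limma adjusted p of 0.244. Without Opn5-null C it passed the threshold.

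Marker lists of the cells that carry these receptors were counted in the same way, beside 18.8% higher and 13.5% lower of all genes tested. Neutrophil markers were higher in 13 of 18 cases and lower in 1, with a median log2 fold change of 1.87. Cxcr2, Mmp9 and Ly6g were higher by 2.69, 3.05 and 2.76. The 4 that did not pass were Ngp, Lcn2, Cd177 and Mmp8, with log2 fold changes of 1.55, 0.51, 0.33 and -0.75. The marker called lower was Padi4, a call that ended when Opn5-null A, Opn5-null D or any 1 of the wild-type libraries was left out. Monocyte and macrophage markers were higher in 11 of 20 cases and lower in 2, with a median of 0.89. Ly6c2 and Ccr2, markers of recruited monocytes, were higher by 4.56 and 2.45, Fcgr1 by 3.78 and Adgre1 by 1.90. Cd163 and Folr2, markers of resident macrophages, were the genes called lower, and 1 of the calls ended without Opn5-null B or any 1 of the wild-type libraries. C1qa, C1qb, C1qc and Cx3cr1, also textbook markers of resident macrophages and named after their values were seen, did not pass, with log2 fold changes from -0.29 to 0.12. Lyve1 and Mertk, of the same list, did not pass either, at -0.52 and -0.38, and Mrc1 was called higher by 1.11. Itgam stands in both of these lists. Dendritic and lymphocyte markers were higher in 6 of 14 and 7 of 11 cases, with Itgax, the gene of CD11c, and Gzma, the granzyme A gene, higher by 3.22 and 3.88. Also called higher were Cd209a and Ccr7 of the dendritic list, by 0.84 and 1.20. Trdc, Cd8a and Cd3e of the lymphocyte list were called higher too, by 1.84, 2.08 and 1.28. The other 8 dendritic markers did not pass, Flt3, Zbtb46 and Clec9a among them, nor did the other 4 lymphocyte markers, including Cd3d, Trac and Cd4. Without Opn5-null A, C or D in turn, 1 dendritic marker was called lower. Of 8 eosinophil, basophil and mast cell markers 1 was higher, Ccr3, and 1 lower, Kit, and 2 were higher without wild-type C. Both shares, 12.5%, were below those of all genes. The other 6 of this list did not pass, among them Cpa3, Mcpt4, Cma1 and Tpsb2, with log2 fold changes from -0.21 to 0.71.

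**Figure D5:**
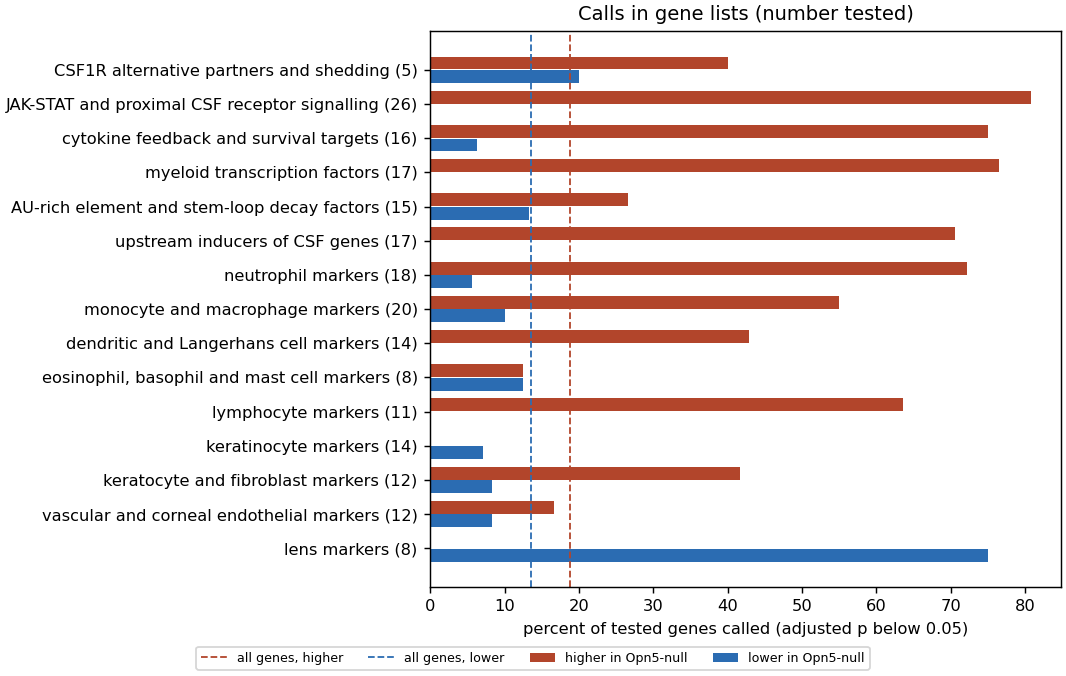
Percent of the tested genes of each list that were higher (red) or lower (blue) in Opn5-null corneas at a limma adjusted p below 0.05, with the number tested in brackets. The dashed lines mark all genes tested, 18.8% higher and 13.5% lower. The list of the beta common family, with 1 gene tested, is not drawn.

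Lists of other cell types were counted as well, beside 18.8% higher and 13.5% lower of all genes tested. Of 14 keratinocyte markers 13 did not pass and 1, Klf5, was lower, with a median log2 fold change of -0.88. The number lower was 7 without Opn5-null D, 2 without Opn5-null B or C and 0 without any 1 of the wild-type libraries. Keratocyte and fibroblast markers were higher in 5 of 12 cases, Col3a1 and Pdgfra among them by 1.90 and 1.59, and lower in 1, Aldh1a1 (2 without Opn5-null D), with a median of 0.56. Vascular and corneal endothelial markers were higher in 2 of 12 cases, Cdh5 and Pecam1, and lower in 1, Slc4a11 (2 without Opn5-null C or Opn5-null D), with a median of -0.19. Both shares, 16.7% and 8.33%, were below those of all genes. The 2 higher calls fell to 0 or 1 without any of wild-type A, B, C and D, or without Opn5-null A or B. Lens markers, from a neighbouring tissue, were lower in 6 of 8 cases with a median of -2.19, Crybb2 with a log2 fold change of -2.97, and how much lens each sample held was not measured.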

How the data were processed

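RNA of whole corneas was sequenced after ribosomal and globin depletion with a stranded kit, per the labels' protocols, and RSEM 1.3.1 was used, per the submitters' processing notes. The sources used here do not give the aligner, genome build, annotation or strand setting. The deposited values are a signal on the scale of gene counts, and they behave as read counts scaled by 1 factor for each library. Read counts were recovered by taking the lowest value above 0 of a column as 1 read, which gave whole reads for 100% of values within 0.001, with 21111715 to 28219234 reads per library. The authors' deposited log2 fold changes, p-values and −log10 adjusted p-values came from their own comparison. Replicates differed by more than sampling noise in every pair, with chi-square per gene from 10.3 to 196.

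Because the values are normalized, limma 3.58.1 (R 4.3.3) gave the main test, with trend and robust variance on log2(value + 1), over the 16085 genes that reached a value of 1 in at least 4 libraries, with Benjamini-Hochberg adjustment over all of them. That scale understates the change of low genes. Ratios in the text are of mean normalized counts. The count test on recovered reads, by edgeR 4.0.16 and by DESeq2 1.42.0, was an alternative. Others were quantile, upper-quartile and TMM scaling, no filter or 1 CPM, a pseudocount of 0.1, a block by letter, leaving out each library or both lettered D, limma-voom with quality weights and a threshold of 0.01. The limma fit was tested on simulated counts with known changes, with an outcome that is not reported here. The simulation gave both genotypes the same spread for each gene. In the data, chi-square per gene between replicates was 44.8 to 196 in Opn5-null pairs and 10.3 to 29.8 in wild-type pairs.

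The members and gene lists were chosen with earlier results of these data known, and the within-library ratios after the values were seen. In each list up to 4 called genes with the lowest p are named, or 2 where none was called. For each member the 3 nearest profiles are named, among genes with a mean of at least 10 normalized counts, leaving out predicted genes, Rik genes, pseudogenes and members. A few genes that this naming takes are not reported here, but they stayed in the fits and the list counts. GENCODE M21 (GRCm38) held 16055 of the 16091 identifiers and gave chromosomes, exon lengths and 3′ untranslated regions.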

Additional observations from a re-analysis of the deposited data

How the results depend on the processing

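The calls of all 7 higher members kept their direction and side of the threshold under every alternative, with a highest adjusted p of 0.0381, for Csf2ra. Limma-voom with quality weights changed the other members: Csf2 passed the threshold with a log2 fold change of 1.88 (adjusted p = 0.027) and Il34 with -0.53 (adjusted p = 0.0136), so that 1 member was called lower, against 0, and 8 were called higher. The cause was not tested. With the 1 CPM filter Csf2 was left out and has no value. When 1 library was left out, the log2 fold change of Csf2 ranged from 0.79 to 1.79 and that of Il34 from -0.40 to -0.12. Over all genes, 58.2% of calls were higher as deposited, 40.3% on quantile-normalized values and 40.8% with scaling by the upper quartile. Both of the latter moved the median gene to -0.13 on the log2 scale, from -0.02, and the members' calls stood under both. Of the counts of called genes in the lists and the ratios, 621 values stayed and 91 moved, all of the latter being list counts. A list count stayed if it kept within 1.5 times. A ratio was judged by a looser rule, and stayed if its log2 difference shifted by less than the pooled SD within groups. The labels do not say whether library letters pair the samples, and no pairing was visible. Same-letter correlations of deviations from the group means were -0.156, -0.128, 0.138 and 0.131 for A to D. Different-letter correlations ran from -0.284 to 0.325. With the letter as a replicate block no member's call changed, and Csf2ra had an adjusted p of 0.017, while 2545 genes were higher and 1691 lower. Csf2 had the fewest reads of the members, 98 and 47 by group, and the precision that this depth gives was not tested apart from the spread between libraries.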
